A study of Lathyrus oleraceus with 4 samples.

Results

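The light-harvesting chlorophyll a/b binding transcripts described here are the 2 probes N1022 and AY845255, out of 2234 probes on a pea oligonucleotide array. They were chosen by their identifiers, with their low SAM/NM ratios on these same arrays already known, so the SAM/NM values below are given as a description and carry no test. AY845255 is the GenBank entry of pea Lhcb3. N1022 is a clone of the normalized shoot apical meristem (SAM) library. The array tables give it no gene name, and it was paired with EX569880, annotated as a light harvesting chlorophyll a/b binding protein, because the listed ratio and adjusted p of that accession fit no other probe.

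The tissues came from garden pea, cultivar Torsdag, grown in a greenhouse for 10 days without further treatment. The SAM samples were dissected apices without leaf primordia, with about 80 apices to an extraction. The non-meristem (NM) samples held RNA of primary stem, mature leaf and primary root, so an NM level cannot be assigned to 1 organ. The methods describe these organs as mixed in equal parts for the driver of a subtracted library, and do not say whether the array samples were mixed likewise. Both tissues of 1 collection were hybridized together to each of 4 arrays. SAM carried Cy3 on arrays 1 and 3 and Cy5 on arrays 2 and 4, and every collection was independent. The methods describe these arrays as sectors of a chip, each hybridized with its own targets, rather than as separate slides.

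Light-harvesting chlorophyll a/b binding proteins hold chlorophyll in the thylakoid membrane of the chloroplast and pass absorbed light energy to the photosystems. They are encoded by a family of nuclear genes and imported into the plastid. Lhcb3 is a component of the antenna of photosystem II. The family is known for high transcript levels in green leaves, and members of the same type can be nearly identical in sequence. Whether either short probe also binds transcripts of related family members was not tested, since probe sequences were not used here.

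The channels of the array tables carry numbers and no dye names. The first channel was read as Cy5, although the labels give Cy3 for channel 1 on all 4 arrays. Under this reading all 120 GenBank-named probes of the supplementary lists that are not on the photosynthesis list below have the direction given there, and 0 of 120 have it under the other. Every direction below depends on this reading and would reverse under the other. Tissue markers followed it too: 8 of 8 probes for dividing or meristem tissue, such as proliferating cell nuclear antigen and histones, were called higher in the SAM, and 5 of 5 probes for mature organs were called lower. All 13 were picked with results of these arrays known and are not independent support. In bulk tissue, fewer cells with a transcript and less of it per cell cannot be told apart.

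N1022 gave far more signal from NM than from SAM RNA on every array. On array 1 its intensity was 16220 for NM and 970 for SAM. On array 2 it was 4599 for NM and 395 for SAM, and on array 3 it was 28334 for NM and 1725 for SAM. Array 4 had 14549 for NM and 1966 for SAM. As scanned, the NM signal was thus between 7.4 and 16.7 times the SAM signal, and the values of the tissues did not overlap. On arrays 1 and 3 this spot was the brightest of all probes in the NM channel, and it ranked 7 on array 2 and 2 on array 4.

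The Lhcb3 probe AY845255 showed the same arrangement with smaller gaps. Its NM and SAM intensities were 6312 and 1062 on array 1. They were 2515 and 371 on array 2. Array 3 had 8563 for NM and 1404 for SAM, and array 4 had 6022 for NM and 1986 for SAM. The NM signal was between 3.03 and 6.79 times the SAM signal, and here too the lowest NM value lay above the highest SAM value.

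**Figure D1:**
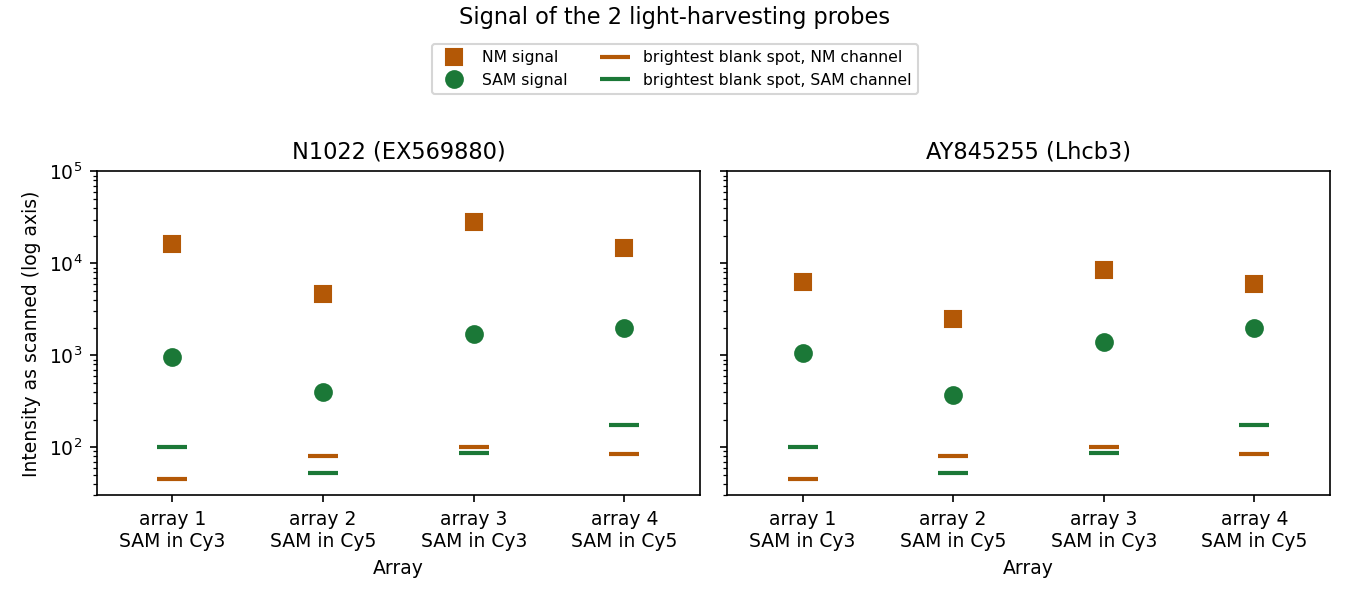
Intensity as scanned (log axis) of N1022 and AY845255 on the 4 arrays, with squares for NM, circles for SAM and bars for the brightest of the 6 blank spots of each channel. NM lies above SAM on every array, and the lowest SAM signal, 371 for AY845255 on array 2, is 6.99 times the brightest blank.

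The SAM signals were set against the blank spots. The SAM signal of N1022 was 9.66, 7.44, 19.7 and 11.3 times the brightest blank spot of its channel on arrays 1 to 4. For AY845255 these multiples were 10.6, 6.99, 16 and 11.4. Every probe on the arrays exceeded the brightest blank, the dimmest by between 1.57 and 2.73 times over the 8 channels, so this comparison could not have placed any probe at background. It does not separate bound transcript from non-specific signal.

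After normalization within arrays by the robust spline, the log2 SAM/NM ratio of N1022 was -3.53 on array 1, -3 on array 2, -4.02 on array 3 and -4.43 on array 4. Its mean was -3.75 ± 0.62 (SD, n = 4 arrays; standard error 0.21 from limma), a SAM signal of 0.0745 times that of the NM. This was the second lowest mean of all 2234 probes (rank 2). For AY845255 the log2 ratio was -2.24, -2.12, -2.92 and -3.04 on arrays 1 to 4. Its mean was -2.58 ± 0.46 (SD, n = 4 arrays; standard error 0.17 from limma), a ratio of 0.167, and it ranked 14 from the lowest. Over all probes, 7.34% were called lower in the SAM (164 of 2234; limma, Benjamini-Hochberg adjusted p below 0.05 together with a ratio below 0.7). Both light-harvesting probes were among them, 2 of 2, which their choice had already fixed. The limma standard errors are drawn toward the spread of all probes (prior SD 0.21). The SDs of N1022 and AY845255 were at percentiles 97.3 and 92.3 of all probes. Their standard errors are therefore smaller than their own SDs imply.

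The ratio of N1022 lay below that of AY845255 on all 4 arrays. The difference between their log2 ratios was -1.29 on array 1, -0.88 on array 2, -1.10 on array 3 and -1.39 on array 4, with a mean of -1.17 ± 0.23 (SD, n = 4). The SAM/NM ratio of N1022 was thus 0.446 times that of Lhcb3. This sets one difference between tissues against another, not the level of one transcript against the other. Since both probes were chosen for the same contrast, it is not tested. As scanned, without any normalization, the mean difference was -1.25 ± 0.32 (SD, n = 4). On arrays 1 to 4 the scanned SAM signals were 970, 395, 1725 and 1966 for N1022. They were similar for AY845255, at 1062, 371, 1404 and 1986. The scanned difference thus lay mostly in the NM signals, where N1022 was the brighter probe on every array.

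After the spline, the order of the arrays was the same for both probes. Array 2 had the ratio closest to 0, followed by arrays 1, 3 and 4. The order was not that of the scanned values, in which the probes also differed from each other. In the log2 ratios deposited by the authors, array 2 was again closest to 0 but the probes differed in the rest. Those ratios were -4.04, -3.34, -3.94 and -3.69 for N1022 on arrays 1 to 4. For AY845255 they were -2.55, -2.36, -2.79 and -2.52. Between scanned and normalized values, the log2 ratio of N1022 moved by 0.53, 0.54, 0.01 and -1.54 on arrays 1 to 4, and that of AY845255 by 0.33, 0.64, -0.31 and -1.44. As scanned, array 4 was the one closest to 0, at -2.89 for N1022 and -1.60 for AY845255. Array 4 thus moved from one end of the order to the other for both transcripts, while the means moved by less than 1 SD, from -3.63 to -3.75 for N1022 and from -2.39 to -2.58 for AY845255.

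**Figure D2:**
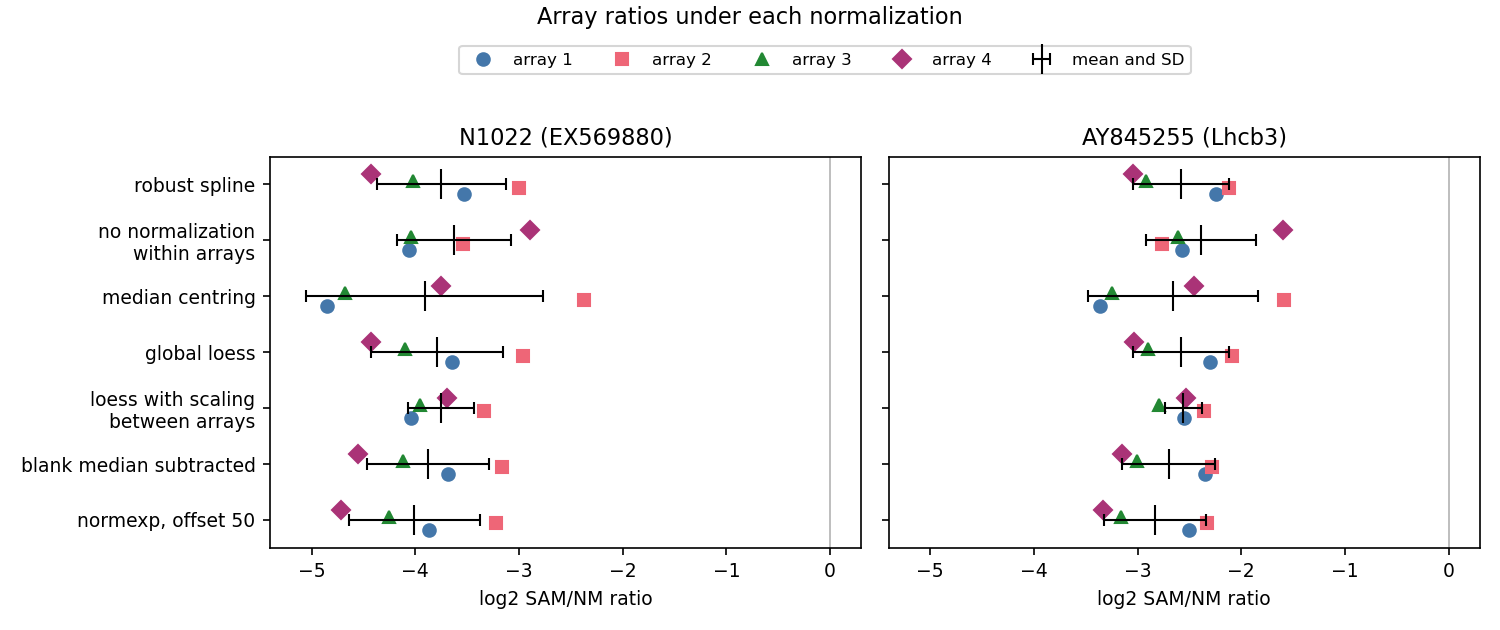
Log2 SAM/NM ratios of N1022 and AY845255 on each array (coloured symbols) under 7 ways of processing, with the mean and SD over the 4 arrays in black. The means stay between -4.01 and -3.63 for N1022 and between -2.83 and -2.39 for AY845255, while the arrays change place within them.

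Scaling between arrays narrowed the spread and kept the means. With a global loess followed by scaling, the SD of N1022 was 0.32 around a mean of -3.75, and that of AY845255 was 0.18 around a mean of -2.56 (n = 4 arrays each). With arrays only centred on their median, the SDs widened to 1.14 and 0.82. Subtracting the blank signal before normalization moved the means to -3.88 and -2.70.

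The channels were also looked at apart. Each signal was divided by the median of its channel, which puts the arrays on a common scale. In the SAM, N1022 then stood at 2.26, 2.32, 2.89 and 2.48 channel medians on arrays 1 to 4, and AY845255 at 2.47, 2.18, 2.35 and 2.51. The highest of these values was only 1.28 times the lowest for N1022 and 1.15 times for AY845255. In the NM the same scale gave 62.6, 11.6, 78.3 and 31.2 for N1022, a span of 6.77 times, and 24.3, 6.33, 23.7 and 12.9 for AY845255, a span of 3.85 times. On this scale the arrays thus differed more in the NM signal than in the SAM signal for both light-harvesting transcripts. Dividing by the median holds a signal close to it steadier than a signal far above it when channel width changes. The NM values on this scale did not follow the spline ratios throughout. Array 4 had the lowest ratio of both probes, but not the highest NM value.

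The NM values were higher where NM RNA carried Cy5 (arrays 1 and 3) than where it carried Cy3 (arrays 2 and 4), with no overlap for either probe. The Cy5 channels of the NM were also wider over all probes. The SD of log2 signals was 1.08 on arrays 1 and 3, against 0.80 on array 2 and 0.94 on array 4. The part of that width, of the dye and of the mixture of organs in each collection in the NM values was not tested. The SAM values, between 2.18 and 2.89 channel medians, showed no such split. The SD of log2 signals in the SAM channels was 0.74 and 1.03 in Cy3 (arrays 1 and 3). In Cy5 it was 1.01 and 1.11 (arrays 2 and 4). A signal close to the median moves less with channel width than a signal far above it, so the tissues are not compared on equal terms.

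**Figure D3:**
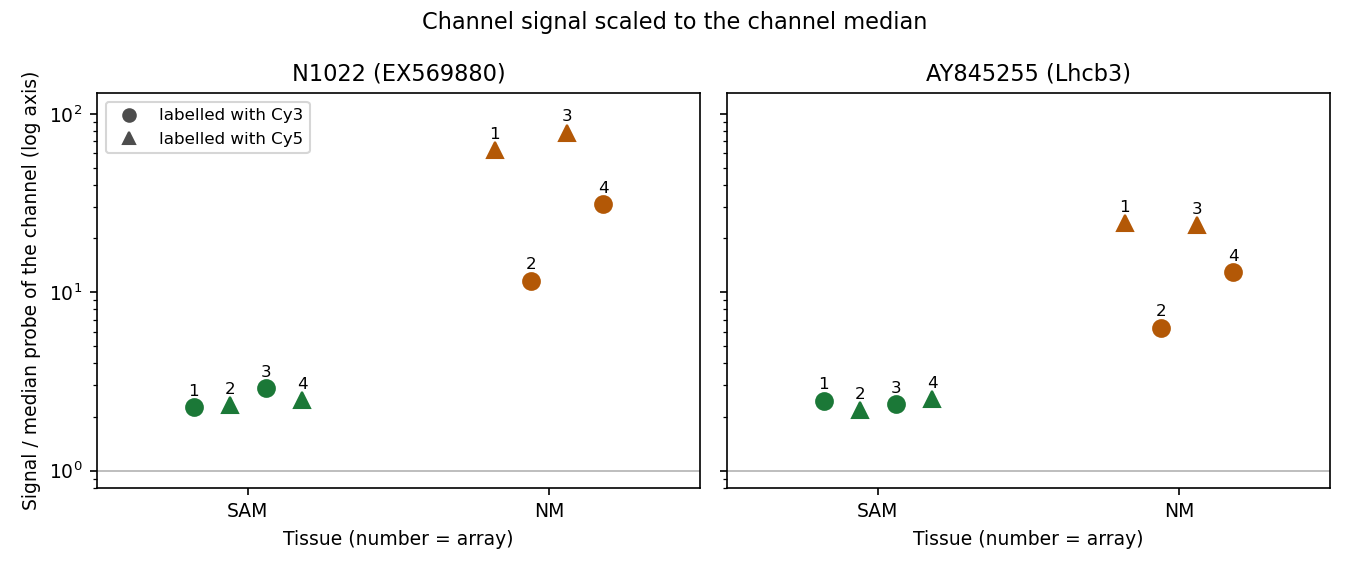
Signal of N1022 and AY845255 divided by the channel median (log axis), by tissue, with the array number beside each point and circles for Cy3 and triangles for Cy5. SAM points lie between 2.18 and 2.89, whereas NM points run from 6.33 to 78.3.

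A dye effect was tested after the spline normalization, in a model with dye beside tissue. The balanced design makes this contrast independent of the SAM/NM difference that chose the probes. The log2 effect of Cy5 over Cy3 was 0.03 for N1022 (standard error 0.23, 95% interval -0.53 to 0.60, adjusted p = 0.948 in limma over 2234 probes). For AY845255 it was 0.00 (standard error 0.18, 95% interval -0.44 to 0.44, adjusted p = 1 in limma). Neither probe passed, and 0.224% of all probes did (5 of 2234). With arrays centred on their median instead, the effect was 0.85 for N1022 (standard error 0.21, adjusted p = 0.0799 in limma) and 0.64 for AY845255 (standard error 0.15, adjusted p = 0.0789), outside the intervals given above although not past the threshold. The near-zero dye effect thus depended on the normalization. After the spline, the mean ratio of N1022 was -3.78 with SAM in Cy3 and -3.72 with SAM in Cy5. AY845255 had -2.58 under both. In this balanced design the dye effect follows from the difference of these means, so they restate it and add no further evidence.

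Spots beside the 2 probes had ratios near 0. Among the 24 spots within 2 columns and rows of N1022, the median log2 SAM/NM ratio was 0.06, -0.06, -0.04 and -0.19 on arrays 1 to 4. Around AY845255 it was 0.10, -0.27, 0.05 and -0.28. These local medians are small beside the ratios of the probes themselves. After the spline the median over all probes was 0.00, so local medians near 0 were likely anywhere on the array. The comparison therefore says little about the spots of the 2 probes.

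A photosynthesis list of 20 probes, these 2 among them, places the transcripts in their pathway. It was drawn from the supplementary lists by search words for photosystems, antenna, electron carriers, carbon fixation, chlorophyll synthesis and the thylakoid. Transcripts of these kinds whose annotation lacks the words are not on it. The supplementary lists hold only transcripts that differed on these same arrays. The counts of the photosynthesis list and the adjusted p-values of its probes below are therefore no independent evidence. Of the 18 other probes, 17 were called lower in the SAM, 1 was called higher, and their median log2 ratio was -1.35. Over all probes 7.34% were called lower, 9.76% higher, and the median was 0.00.

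The antenna held 2 further probes. EX569551, annotated as a chlorophyll a/b binding protein of photosystem I, type I, had a log2 ratio of -2.68 ± 0.59 (SD, n = 4, adjusted p = 1.81e-04 from limma), close to Lhcb3. Its array values of -2.32, -2.08, -2.90 and -3.40 tracked those of AY845255 more closely than any other of the 2234 probes did, with a root mean square difference of 0.19 over 4 arrays. The type II chlorophyll a/b binding transcript EX569675 stood at -1.73 ± 0.61 (limma's adjusted p = 9.56e-04, SD over n = 4), the smallest difference of the 4 antenna probes. N1022 had the lowest ratio of the antenna group on each of the 4 arrays.

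In the photosystems, oxygen-evolving enhancer protein 3 (AY292531), a subunit attached to the water-splitting side of photosystem II, had a log2 ratio of -2.90 ± 0.93 (SD, n = 4, adjusted p = 5.83e-04 from limma). PsaD (EX568889), the photosystem I subunit that docks ferredoxin, stood at -2.87 ± 0.76 (SD over n = 4, limma's adjusted p = 2.85e-04). Their means lay between those of Lhcb3 and N1022, within 1 SD of the former. CP47 (AY007467), a core antenna protein of photosystem II and the product of the plastid gene psbB, was at -1.35 ± 0.72 (SD over n = 4, limma's adjusted p = 0.00631). Its annotation also names the genes psbT and psbN, and which of these genes the probe detects was not examined. The photosystem I subunit PSI-K (EX569989) had a mean of -1.35 as well, with an SD of 0.39.

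Among transcripts annotated to carbon fixation, the ribulose 1,5-bisphosphate carboxylase probe EX570832 had -2.81 ± 0.83 and rubisco activase (AY065656), which keeps that enzyme active, had -2.50 ± 1.11 (SD, n = 4 each; adjusted p = 4.37e-04 and 0.0022 from limma). Both were near Lhcb3 in mean and wider in spread. The sources also place EX570832 among homeobox genes in another listing, so its identity is not settled. The 4 probes for ribulose-5-phosphate-3-epimerase and for CP12, a regulatory protein of the Calvin cycle, ran from -1.35 to -0.91, all called lower. Without array 4, the epimerase probe AF255725 had an adjusted p of 0.0646 in limma.

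Electron transport was the group in which directions differed. The 2 ferredoxin-NADP+ reductase probes, for the enzyme that forms NADPH, were called lower at -1.80 (AF321528) and -1.12 (AF057182). The ferredoxin transcript EX569718 was called higher at 0.44 ± 0.24 (SD, n = 4, adjusted p = 0.0313 from limma), a small difference that did not pass without array 2 (adjusted p = 0.0637), array 3 (0.124) or array 4 (0.132). Ferredoxins also exist in forms of non-green tissue, and the annotation does not say which form this probe detects.

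Chlorophyll synthesis was represented by protochlorophyllide reductase (EX571136), which carries out the light-dependent step, and by a Mg-protoporphyrin methyltransferase (EX569793). Their log2 ratios of -0.89 ± 0.68 and -0.96 ± 0.71 (SD, n = 4 each; adjusted p = 0.0336 and 0.027 from limma) were far closer to 0 than that of N1022. On array 2 they stood at 0.06 and 0.05. Neither passed the threshold without array 1, 3 or 4, with adjusted p between 0.061 and 0.151 in limma, and the same held for the thylakoid lumenal transcript EX571171 at -0.83 (adjusted p between 0.0552 and 0.132).

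**Figure D4:**
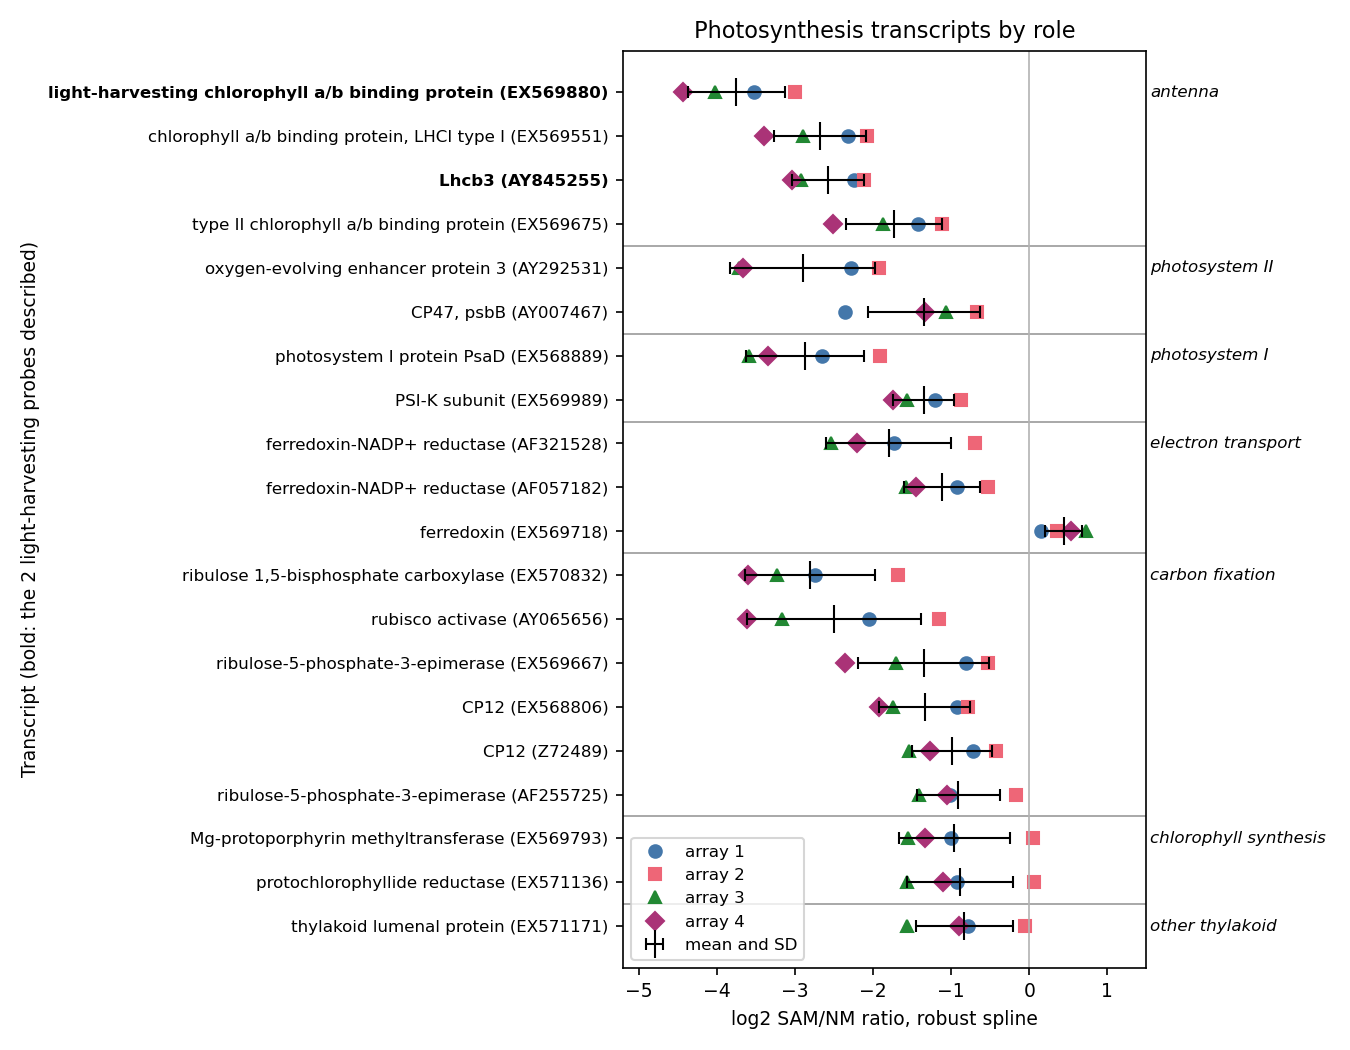
Log2 SAM/NM ratios of the 20 photosynthesis probes by role, with 1 symbol per array and the mean and SD over 4 arrays in black. N1022 (EX569880) has the lowest mean, -3.75, ferredoxin has the only mean above 0, and array 2 has the value closest to 0 for all 19 probes called lower.

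The probes whose 4 normalized ratios came closest to those of N1022 were none of the photosynthesis list. They were the ultraviolet-B-inducible, auxin-related transcript AY065659 (root mean square difference 0.43), the type 1 metallothionein AB176564 (0.51), the basic PR1 transcript AJ586324 (0.73), the ultraviolet-B-repressible dehydrin-related transcript AY065655 (0.84) and the short-chain alcohol dehydrogenase AF097651 (0.85). For AY845255 the nearest after EX569551 were AY065655 (0.38), the unnamed transcript EX568811 (0.40), PsaD (0.43) and EX570832 (0.46). Other normalizations and backgrounds kept between 3 and 5 of the 5 nearest probes of N1022 (3 with normexp) and between 4 and 5 of those of AY845255. AY845255 was 13 in order of closeness to N1022, at 1.18. Once each probe's own mean was taken away, the remaining difference between both light-harvesting probes was 0.20. This was not particular to the pair. The same measure from N1022 was 0.15 for AY065655 and 0.20 for the metallothionein AB176564. From AY845255 it was 0.18 for AY065655 and 0.16 for EX569551.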

How the data were processed

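Total RNA from SAM and NM was labelled with Cy3 or Cy5 and hybridized to a CombiMatrix array. The authors scanned and quantified it, and deposited an intensity for each channel of every spot, without normalization or a background column. They also deposited log2 ratios of the first over the second channel, which equal a global loess with scaling between arrays (largest difference 3.2e-08), with medians within 0.007 of 0 on each array. The number of arrays, 4, limits the precision.

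Leaving out 6 blank spots, 2234 probes had their log2 ratios normalized by limma's robust spline without background subtraction, turned to SAM over NM and fitted with lmFit and eBayes (limma 3.58.1, R 4.3.3). P-values were adjusted by Benjamini-Hochberg over 2234 probes. A probe was called at an adjusted p below 0.05 if its ratio also exceeded 1.3 or lay below 0.7. Figures were drawn with matplotlib 3.10.9. The fit was also run on simulated data, with smaller changes than those of either light-harvesting probe and the same intensity bias on every array. That run does not show how the fit performs on ratios as large as theirs.

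All 230 EX accessions were paired with clones by refitting the deposited ratios (summed relative difference at most 5.79e-06, next probe at least 3.22e-04); this uses values of the same arrays. Named are the 2 members, the photosynthesis list and each member's 5 nearest probes by root mean square difference. Of the search words, PsAD also met 2 dormancy transcripts, which were left out. Members and lists were chosen with earlier results of these data known.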

Additional observations from a re-analysis of the deposited data

How the results depend on the processing

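The log2 ratios of N1022, of AY845255 and their difference kept their sign and stayed within 1 SD of the reported value under every alternative run. Leaving out 1 array gave -4.00 to -3.52 for N1022, -2.73 to -2.43 for AY845255 and -1.26 to -1.09 for the difference. Without normalization within arrays, 31 probes were called lower and 49 higher, and 8 of the 20 photosynthesis probes lower. CP47, PSI-K and both ferredoxin-NADP+ reductase probes were among those not called then. Median centring left 128 called higher, and 15 of the 20 photosynthesis probes called lower. Under it AF255725, EX569793, EX571136 and EX571171 were no longer called lower, and ferredoxin EX569718 was no longer called higher. With median centring, the dye effect was 0.85 for N1022 (adjusted p = 0.0799 in limma) and 0.64 for AY845255 (0.0789), and without normalization it was 0.42 and 0.20. For AY845255 it was -0.02 with the blank median subtracted, and with 1 array left out it ran from -0.23 to 0.23, and for N1022 from -0.32 to 0.39. Without normalization, array 2 was closest to 0 for 0 of the 19 photosynthesis probes called lower, and for 19 under each other normalization and background setting (a count added after seeing the data and not run with arrays left out). The filter on dim probes left out 0, since every probe exceeded the brightest blank. The fit is already paired, since each ratio sets SAM against NM of the same collection on 1 array, so no further replicate block was fitted. The 4 arrays limit the precision of every ratio.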

Other observations

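The place of array 2 was shared through the photosynthesis list. All 17 of its called-lower probes other than N1022 and AY845255 had their ratio closest to 0 on array 2, and so did 62 of the 145 probes called lower that are not on the list (42.8%). The median of these 17 was -1.21, -0.70, -1.70 and -1.93 on arrays 1 to 4. The pattern was noticed in these data and is given without a test.

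The larger array-to-array spread of the NM signal, scaled to the channel median, was also shared. The SD of log2 NM signal exceeded that of log2 SAM signal for all 17, for 78.6% of the 145 called-lower probes outside the list and for 38.2% of all probes. Probes called lower were selected for a higher NM than SAM signal. On this scale a signal far above the median moves more with channel width, so the selection can favour this outcome. These shares are a description and carry no test. Divided by the 75th percentile of the channel instead, a scaling chosen after seeing the data, the highest NM signal was 5.84 times the lowest for N1022 and 3.34 times for AY845255, and the highest SAM signal 1.25 and 1.34 times the lowest.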
